A study of Mus musculus with 8 samples.

Results

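The genes described here are the writers and erasers of N6-methyladenosine (m6A), taken as a fixed list of 10 named genes out of 21951 that GENCODE M21 annotates as protein-coding. They are the catalytic pair Mettl3 and Mettl14, the complex members Wtap, Virma, Zc3h13, Rbm15, Rbm15b and Cbll1, and the demethylases Fto and Alkbh5. Bone marrow-derived macrophages (BMDMs) were profiled by MeRIP-Seq, in which RNA fragments bound by an m6A antibody (IP) are sequenced beside the unselected input. Each of 2 WT and 2 KO replicates, taken here as 1 mouse each, gave 1 IP and 1 input library, 8 in all. The deposited data hold 1 list of mRNA m6A peaks per replicate. All mice were on the C57BL/6 strain, were 8 weeks old and carried floxed Mettl3 alleles. WT mice were Mettl3 fl/fl Lyz2 +/+ and KO mice were Mettl3 fl/fl Lyz2 cre/+, so the deletion is driven by Cre from the Lyz2 locus, which is active in myeloid cells. Marrow cells were cultured for 7 days in M-CSF at 40 ng/mL. The question addressed is which components of the machinery carry m6A peaks on their own mRNA, and whether these peaks differ between WT and KO BMDMs.

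In mRNA, m6A is deposited by a nuclear complex in which METTL3 is the catalytic subunit and METTL14 holds the RNA substrate. WTAP anchors this pair to a larger assembly that contains VIRMA, ZC3H13 and the ubiquitin ligase CBLL1 (HAKAI), and the RNA-binding proteins RBM15 and RBM15B bring the complex to its targets. FTO and ALKBH5 are dioxygenases that remove methyl groups from RNA. The mark lies in the consensus DRACH, where D is any base but C, R is A or G and H is any base but G, most often as GGAC, and is typically dense in long internal exons and around stop codons.

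A peak here is a stretch of the genome in which the IP was called enriched. The lists held 6159 and 6263 peaks in WT and 6378 and 6684 in KO (here and throughout, replicate 1 of a genotype before replicate 2), with a score per peak and no read counts, so the depth is unknown and neither expression nor the degree of methylation can be read from them. The peak names carried running numbers that increased with position, and these numbers reached 62325 and 35683 in WT and 74162 and 85462 in KO. Each list thus held peaks equal to only 9.88% and 17.6% (WT) or 8.6% and 7.82% (KO) of its highest number, and what became of the other numbers is not given in the sources used here. A gene or exon without a peak is therefore one without a listed peak. The lists could not serve to check the cells: of 8 macrophage markers only Mrc1 and Mertk had a peak, 1 of them in all 4 lists, and of 7 markers of other cells only Col1a1 had one.

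Short stretches show where the core motif sits in the peaks that recur in all 4 lists and in the 2 Zc3h13 exons listed in only 1 genotype. Each is the GGACT, or where there was none the GGAC, nearest to the middle of an unbroken run of bases shared by the lists, with 12 bases on either side. The 1028 bases of Rbm15b covered in all 4 lists are not 1 unbroken run, and a run of 534 bp was used. The printed stretches run 5′ to 3′ on the transcript strand of the GRCm38 assembly of RefSeq, with the motif in capitals.
Wtap (chr17:12974763-12974791, minus strand, 3′-UTR): caataagactgtGGACTtcatgattgttg
Virma (chr4:11513511-11513538, plus strand, CDS): agctcaaagctgGGACcaagctagtgac
Zc3h13 exon 9, both KO lists only (chr14:75321719-75321747, plus strand, CDS): catcctaccagaGGACTttaactccatct
Zc3h13 exon 10 (chr14:75323360-75323388, plus strand, CDS): cagagacatgcgGGACTccagagagatga
Zc3h13 exon 12 (chr14:75327650-75327677, plus strand, CDS): cgatagggtcagGGACagagatagggat
Zc3h13 exon 15, both WT lists only (chr14:75332106-75332134, plus strand, CDS): aggcagctcccgGGACTccgtggccttgg
Rbm15 (chr3:107331178-107331206, minus strand, CDS): cagaggtgatcgGGACTtgcccagcagca
Rbm15b (chr9:106886075-106886103, minus strand, CDS): gcggcggccgtgGGACTgtctcgagagcg
Alkbh5 (chr11:60538908-60538936, plus strand, CDS): cgacgagatcccGGACTgggtgcatcagc

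Of the 10 genes, 8 had a peak in at least 1 list, against 32.1% of all protein-coding genes. Peaks in all 4 lists were found on 6 of the 10, against 9.78% of all genes, namely on Wtap, Virma, Zc3h13, Rbm15, Rbm15b and Alkbh5. These shares of all genes include genes without expression in BMDMs, which the lists do not identify. All annotated exons together were, in each of the 10 genes, at or above the length of 56.9% (Cbll1) to 96.9% (Fto) of genes. The median of that length was 2803 nt in genes without a peak and 6421 nt in genes with a peak in all 4 lists. Whether length bears on the counts of the 10 genes was not tested. Cbll1 had a peak in 3 lists and Fto in 2, while Mettl3 and Mettl14 had none. No gene of the list had peaks in both WT lists and neither KO list, a pattern seen in 3.84% of the 7055 genes with a peak, and none had the opposite pattern, seen in 4.88% of them. The number of peaks on the 10 genes was 13 and 15 in the WT lists and 16 and 13 in the KO lists. The mean was 14 ± 1.41 in WT and 14.5 ± 2.12 in KO (SD, n = 2 mice each), a difference of 0.5 that lay within the spread of either genotype. With 2 mice against 2 the smallest two-sided p that an exact permutation test allows is 0.333, so no test was run and differences between genotypes are given as values beside the spread between mice.

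**Figure D1:**
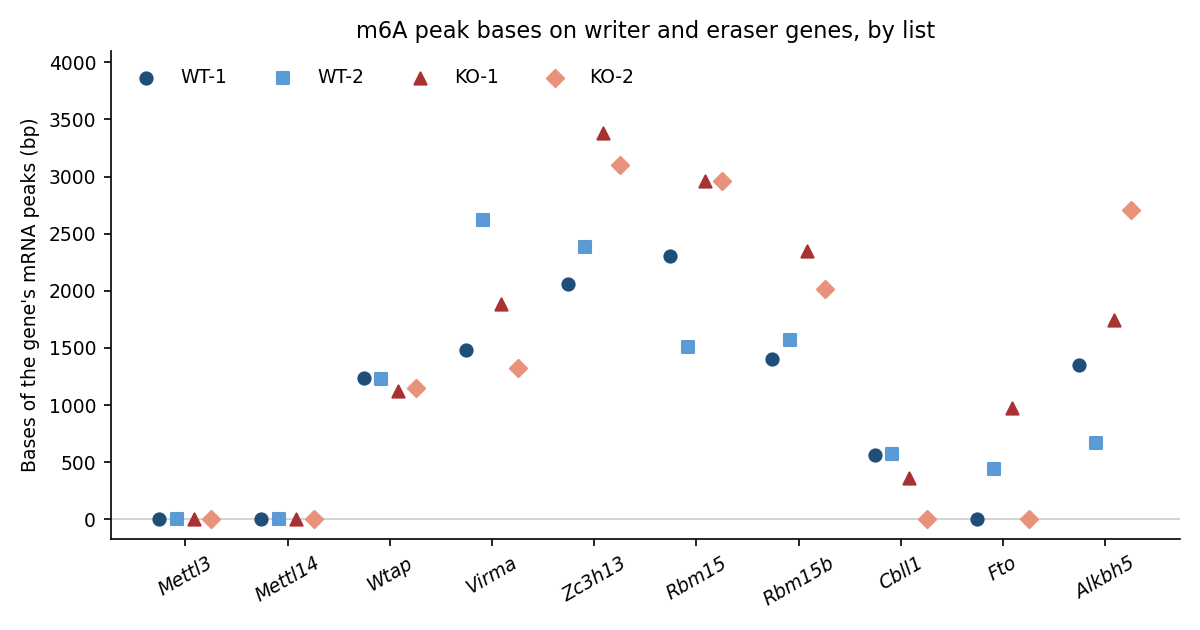
Bases covered by the listed m6A peaks of each gene (y axis, bp) for the 10 writer and eraser genes (x axis), with 1 point per mouse: dark blue circle WT-1, light blue square WT-2, dark red triangle KO-1, light red diamond KO-2. Mettl3 and Mettl14 stand at 0 in all 4 lists, the KO points of Zc3h13, Rbm15, Rbm15b and Alkbh5 lie above both WT points, and those of Wtap lie below them.

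The catalytic pair had no listed peak in any mouse. Mettl3 (chr14:52294841-52305128, minus strand, GRCm38) is a gene of 11 exons whose transcript of 2025 nt holds 14 GGAC, or 6.91 per kb. Longest exons are given here for the transcript of each gene with the longest CDS. That of Mettl3 has 405 nt, and only 15.6% of protein-coding genes have a longest exon that short or shorter. Mettl14 (chr3:123368297-123386108, minus strand) has 10 GGAC in 2741 nt (3.65 per kb) and a longest exon of 1394 nt, at or above that of 56.1% of genes. Over all genes, the median longest exon was 961 nt in the 14896 genes without a peak, 1566 nt in the 4908 genes with a peak in 1 to 3 lists and 2379 nt in the 2147 genes with a peak in all 4. The longest exon of Mettl14 is longer than that of Virma (1141 nt) and Zc3h13 (1191 nt), which had peaks in all 4 lists. It is also longer than that of Wtap (1256 nt), whose peaks, however, lay in an exon of 2790 nt of another transcript. The longest exon of Mettl14 is shorter than that of Rbm15 (3459 nt), Rbm15b (6511 nt) and Alkbh5 (4275 nt), which had peaks in all 4 lists. The length of all annotated exons together is 5076 nt for Mettl3 and 7419 nt for Mettl14, at or above 68.6% and 84.7% of genes. The medians in the same 3 sets of genes were 2803, 4704 and 6421 nt. Whether exon length bears on the lack of listed peaks was not tested. Neither gene had a peak on the opposite strand. Between the listed peaks that flank Mettl3, 24727 to 80151 bp apart, 5 to 12 peak numbers were missing from each list, and these stretches include other genes. Since Mettl3 was without a peak in WT and KO alike, the lists hold no check of the deletion.

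Wtap, the scaffold that brings METTL3 and METTL14 together with the rest of the complex, had 1 peak per list, and its peaks varied little between mice. It covered 1235 and 1233 bp in WT and 1120 and 1146 bp in KO, and all 4 peaks had the same upstream border, base 12975474 of chromosome 17 (minus strand), which is the 5′ border of an exon. Both WT peaks were longer than both KO peaks, with means of 1234 ± 1.41 and 1133 ± 18.4 bp (SD, n = 2 each) and a difference of -101 bp. The exon is the last of 6 in a short coding transcript and has 2790 nt. There the peaks took up 183 bp of CDS and 937 to 1052 bp of 3′-UTR and crossed the stop codon. In the transcript with the longest CDS (1191 nt) the same peaks touched only 179 bp of coding sequence and otherwise lay in an intron, so their place in the mRNA depends on the transcript. The score was 3100 in WT-1, WT-2 and KO-2, where 99.1% to 99.7% of peaks scored no higher, and 1033.23 in KO-1, at or above 63.6% of that list. Of the bases covered in any list, 90.7% were covered in all 4, against 21.5% to 50.9% in the other 5 genes of the group with a peak in all 4 lists and a median of 34.4% (quartiles 16.2% and 55.6%) over the 2147 genes with a peak in all 4 lists. The shared 1120 bp hold 6 GGAC, 4 of them GGACT, among them the one printed for Wtap.

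Virma encodes the largest subunit, which guides methylation towards the 3′-UTR and stop codon. Its exon 8 of 25, a coding exon of 1141 nt, carried a peak in all 4 lists, of 1129 and 1141 bp in WT and of 1129 and 948 bp in KO. The scores were 1445.97 in WT-1 and 3100 in the other lists. All 4 peaks began at the first base of the exon, position 11513028 of chromosome 4 (plus strand). Exon 10 (489 nt) had a peak of 354 and 489 bp in the WT lists and of 386 bp in KO-1, and KO-2 lacked it. The stop codon in exon 25 lay in a peak of 364 bp in WT-2 and of 369 and 378 bp in the KO lists, and in no peak of WT-1, with low scores of 312.62, 138.44 and 170.32. WT-2 alone had a further peak of 629 bp (chr4:11526832-11527460) across the stop codon of a shorter transcript that ends in its exon 13. In total the peaks of Virma covered 1483 and 2623 bp in WT and 1884 and 1326 bp in KO, so the genotypes overlapped, and the difference of -448 bp was smaller than the SD of 806 bp between the WT mice.

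Zc3h13, whose product keeps the complex in the nucleus, had the most peaks of the group, 18 over the 4 lists, in 6 exons (chr14:75284373-75344426, plus strand). The whole of exon 12 (601 nt) was a peak in each list, with scores of 3100 and 1449.62 in WT and 3100 in both KO lists. Exon 10 (651 nt) was a peak over 303 and 439 bp in WT and over all 651 bp in both KO lists. Exon 14 (1191 nt) was a peak over 639 bp in WT-1, over the whole exon in both KO lists and not at all in WT-2. The stop codon in exon 19 lay in a peak of 833 bp in WT-2 and of 632 and 351 bp in the KO lists, with scores of 422.06, 119.94 and 454.76, and in no peak of WT-1.

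A pair of Zc3h13 exons was listed in only 1 genotype. Exon 15 (chr14:75331706-75332218, 513 nt, all coding) was a peak from end to end in both WT lists, with a score of 3100 in each, and had no peak in either KO list. Exon 9 (chr14:75321597-75321904, 308 nt, all coding) was a peak from end to end in both KO lists, with scores of 775.03 and 3100, and had none in either WT list. Over all 11965 regions on protein-coding genes, made by merging overlapping peaks of the 4 lists, 3.33% had the first pattern and 6.1% the second. Of the 21 regions on the writers and erasers 1 had each, which is near these shares. Both patterns were the same with only the 50% of peaks of highest score in each list, with the lists cut to the same length by score, with at least 50% of each peak in exons and without regard to strand. The central 200 bases of exon 15 and exon 9 are printed with each GGAC in capitals.
Zc3h13 exon 15 (chr14:75331863-75332062, plus strand, CDS): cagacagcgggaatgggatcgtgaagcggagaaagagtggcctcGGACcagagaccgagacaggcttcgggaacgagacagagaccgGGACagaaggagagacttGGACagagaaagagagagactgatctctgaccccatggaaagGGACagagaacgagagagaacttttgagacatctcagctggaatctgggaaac
Zc3h13 exon 9 (chr14:75321651-75321850, plus strand, CDS): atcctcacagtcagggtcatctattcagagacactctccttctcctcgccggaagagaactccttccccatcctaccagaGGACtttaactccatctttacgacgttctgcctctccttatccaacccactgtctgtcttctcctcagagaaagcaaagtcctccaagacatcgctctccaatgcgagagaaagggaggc
Exon 15 holds 8 GGAC, or 15.6 per kb, a density at or above that of 99.1% of all regions, 4 of them in the printed stretch. Exon 9 holds 3 GGAC, or 9.74 per kb, at or above 92.7% of regions, 1 of them in the printed stretch.

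Each of these exons adjoins, in the spliced mRNA, an exon with peaks in lists where the exon itself was without one. Exon 9 takes up nucleotides 1234 to 1541 of the mRNA and exon 10, a peak in all 4 lists, 1542 to 2192. Exon 14 takes up nucleotides 3090 to 4280 and exon 15 4281 to 4793. Both KO lists had a peak that ran to the last base of exon 14, directly before exon 15, whereas the exon 14 peak of WT-1 ended at nucleotide 3728. In the peak names, 3 numbers of KO-1 and 4 of KO-2 were missing between exon 14 and exon 19, a stretch of 12334 bp that contains exon 15. In WT-2, 1 number was missing between exon 12 and exon 15, which contains exon 14. Between exon 10 and the nearest listed peak upstream, the WT lists lacked 106 (WT-1) and 22 (WT-2) numbers, over 2083286 and 616577 bp that contain exon 9 and other genes. Whether a peak on these exons was called and then left out of a list was not tested and cannot be read from the lists.

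**Figure D2:**
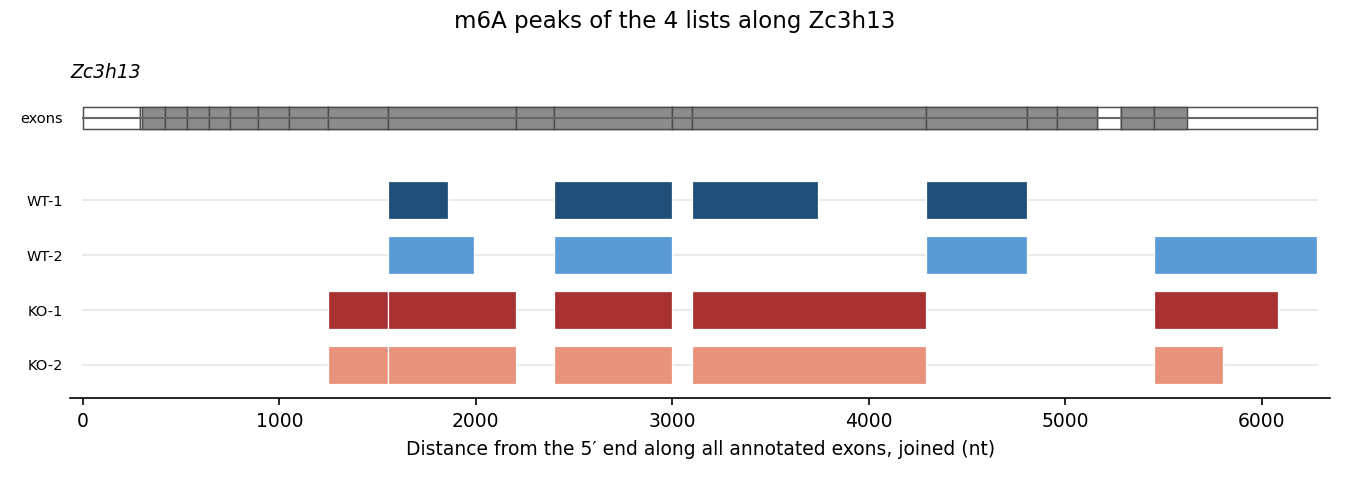
Listed m6A peaks along Zc3h13, by distance from the 5′ end along all annotated exons joined (x axis, nt), with 1 row per mouse (dark and light blue, WT-1 and WT-2; dark and light red, KO-1 and KO-2). In the row of exons, grey marks coding sequence and vertical lines exon borders. Exon 15 (513 nt, after exon 14) is filled in the 2 WT rows only and exon 9 (308 nt, the first block from the left) in the 2 KO rows only, and both KO rows fill exon 14 (1191 nt).

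In all, the peaks of Zc3h13 covered 2056 and 2386 bp in WT against 3383 and 3102 bp in KO. The mean was 2221 ± 233 bp in WT and 3242 ± 199 bp in KO (SD, n = 2 each), a difference of 1022 bp, and the genotypes did not overlap. Peaks took up 39.6% and 33.2% of the CDS in WT and 56.3% in each KO list. Only 22.1% of the bases covered in any list were covered in all 4.

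Rbm15, an RNA-binding adaptor of the complex that is also known for its part in X inactivation and blood cell development, had 1 peak per list, in its long first exon (3459 nt, chr3:107325421-107333673 for the gene, minus strand). The peak covered 2305 and 1506 bp in WT and 2960 bp in both KO lists. The KO peaks had the same start and end, chr3:107330330-107333289, and neither border was that of an exon. They took in 209 bp of 5′-UTR and 2751 bp of CDS, whereas the WT peaks lay wholly in the CDS. Peaks thus took up 79.8% and 52.1% of the CDS in WT and 95.2% in each KO list. The scores were 1291.28 and 2448.48 in WT and 3100 and 2339.48 in KO, so those of the genotypes overlapped while the lengths did not. The means were 1906 ± 565 and 2960 ± 0 bp, a difference of 1054 bp.

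Rbm15b, the close relative of Rbm15 with an overlapping role, is a gene of a single exon of 6511 nt (chr9:106880918-106887428, minus strand). Its peaks covered 1404 and 1573 bp in WT, in each case as a pair of separate peaks within the CDS. In KO-1 a single peak of 2348 bp filled the gap between them and ran past the stop codon. In KO-2 peaks of 1646 and 372 bp, the shorter one across the stop codon, made up 2018 bp. The means were 1488 ± 120 bp in WT and 2183 ± 233 bp in KO (SD, n = 2 each), a difference of 694 bp with no overlap. Peaks took up 52.7% and 59% of the CDS in WT and 83.9% and 70.9% in KO. The highest scores were 2212.22 and 399.36 in WT and 1370.12 and 953.37 in KO, which overlapped. In KO-2, 1 peak on the opposite strand, assigned to Dcaf1, also overlapped the gene. The highest share of CDS in peaks among the 10 genes was that of Rbm15b in WT-2 and that of Rbm15 in the other 3 lists.

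Cbll1, the RING-type ubiquitin ligase of the complex, had 1 peak in every list but that of KO-2, all in its last exon of 3379 nt (chr12:31484829-31499616 for the gene, minus strand). The peak of WT-1 (568 bp, score 461.08) crossed the stop codon with 314 bp of CDS and 254 bp of 3′-UTR. That of WT-2 (571 bp, score 1306.54) lay upstream in the CDS and held no GGAC, the only one of the 21 regions without it. That of KO-1 (367 bp, score 129.99) lay in the 3′-UTR, 1012 nt beyond the stop codon. The 3 peaks shared no base, so the presence of Cbll1 in 3 lists is not the recurrence of 1 site.

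**Figure D3:**
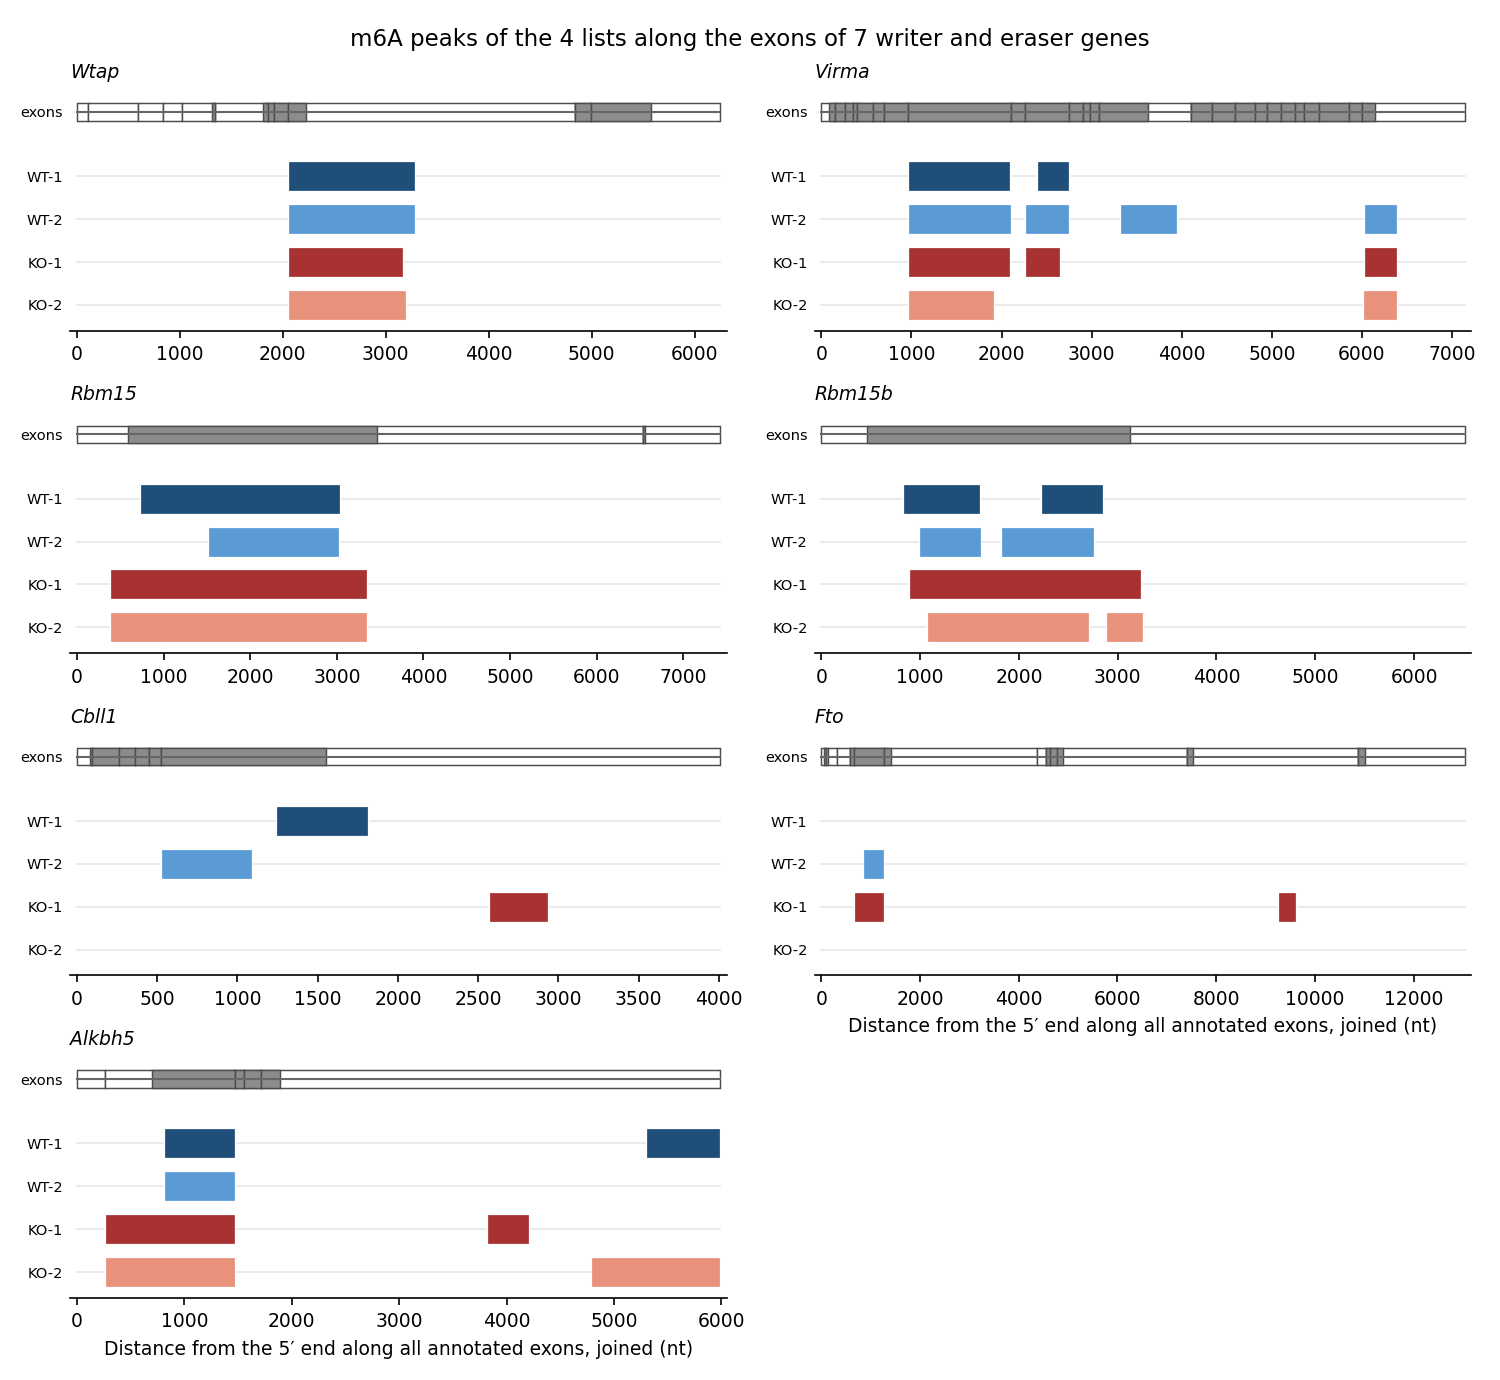
Listed m6A peaks along the other 7 genes with a peak, by distance from the 5′ end along all annotated exons joined (x axis, nt, own scale for each gene), with 1 row per mouse (dark and light blue, WT-1 and WT-2; dark and light red, KO-1 and KO-2). In the row of exons, grey marks coding sequence. Wtap has near-identical blocks in the 4 rows (1120 to 1235 bp), those of Rbm15 and Rbm15b are wider in the KO rows, and the 3 blocks of Cbll1 do not overlap.

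Of the erasers, Alkbh5 had peaks in all 4 lists. Its first exon (1218 nt; gene at chr11:60536381-60558512, plus strand) had a peak of 666 and 667 bp in the WT lists, both within the CDS and ending at the 3′ border of the exon. In KO-1 and KO-2 the peak ended at the same base but extended upstream over the whole 5′-UTR of 445 nt and 135 and 295 bp beyond the start of that transcript, to 1353 and 1513 bp. The scores were 112.21 and 2081.50 in WT and 1892.52 and 2028.20 in KO, so WT-2 stood with the KO lists. In the 3′-UTR of 4097 nt, WT-1 had a peak of 688 bp and KO-2 one of 1194 bp that overlapped near the 3′ end, KO-1 had one of 388 bp elsewhere, and WT-2 had none. In total the peaks covered 1354 and 667 bp in WT and 1741 and 2707 bp in KO, with means of 1010 ± 486 and 2224 ± 683 bp (SD, n = 2 each) and a difference of 1214 bp, again without overlap. Peaks took up 56.1% of the CDS in each WT list and 65.1% in each KO list.

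Fto, the eraser of the wider substrate range, had a peak in 1 list of each genotype, WT-2 and KO-1 (chr8:91313525-91668439, plus strand). In WT-2 it covered 441 bp of coding exon 3 (score 828.33), and in KO-1 all 619 bp of that exon (score 512.73). KO-1 had a further peak of 358 bp in the 3′-UTR of another transcript. The other list of each genotype had no peak on Fto.

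Set side by side, the 6 genes with a peak in all 4 lists held more peak bases in both KO lists than in both WT lists in 4 cases (Zc3h13, Rbm15, Rbm15b and Alkbh5), fewer in 1 (Wtap), and overlapped in 1 (Virma). Over all 2147 genes with a peak in all 4 lists, 29.6% had more in both KO lists and 9.36% had more in both WT lists. The KO lists covered more bases per gene in general. The median of the mean peak bases per gene was 1002 bp in WT and 1138 bp in KO, with a median difference of 124 bp, against 1697, 2204 and 858 bp for the 6 genes. The median width of a peak was 478 and 498 bp in the WT lists and 501 and 543 bp in the KO lists, and the part of these whole-list differences in the values of single genes was not tested. With only the 50% of peaks of highest score in each list, Rbm15b had no peak in WT-2. Of the 5 genes that kept a peak in all 4 lists, 3 (Zc3h13, Rbm15 and Alkbh5) had more bases in both KO lists. The other 2 (Wtap and Virma) had more in both WT lists. Over all 1055 genes with a peak in all 4 lists at that setting, these shares were 31% and 9%.

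**Figure D4:**
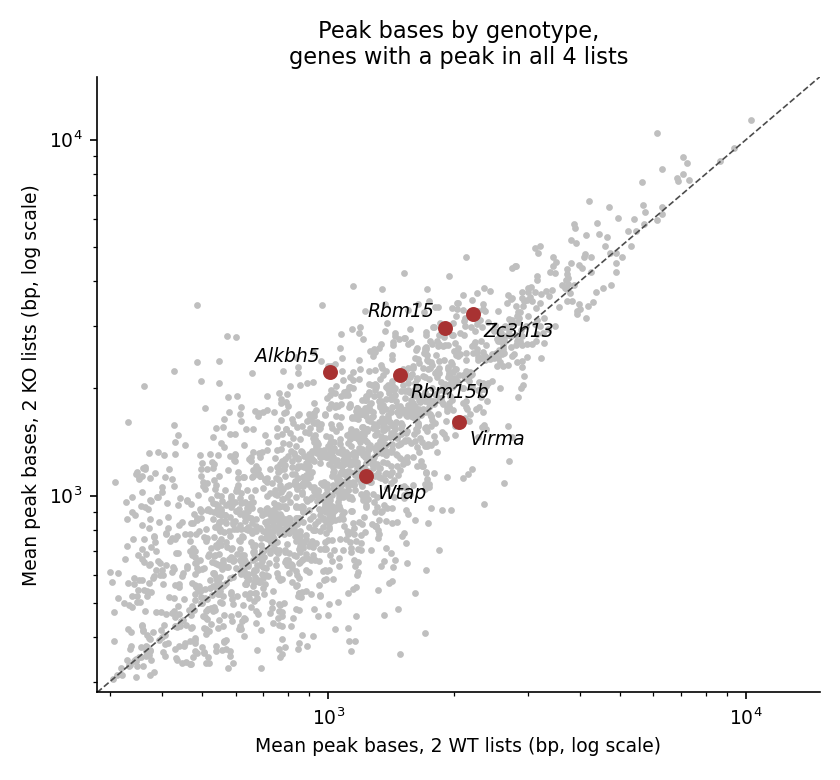
Mean peak bases per gene in the 2 KO lists (y axis, bp, log scale) against the 2 WT lists (x axis, bp, log scale) for the 2147 genes with a peak in all 4 lists (grey), with the 6 writers and erasers among them in red and a dashed line of equal values. Zc3h13, Rbm15, Rbm15b and Alkbh5 lie above the line and Wtap and Virma below it, within a cloud whose median difference is 124 bp towards KO.

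The 57 peaks on the writers and erasers formed 21 merged regions. Of these, 7 (33.3%) had a peak in all 4 lists, against 18.1% of the 11965 regions of all genes, and 6 (28.6%) were found in a single list, against 49.2%. These peaks lay mostly inside coding sequence: 34 of 57 (59.6%) held only CDS bases, against 27.6% of the 24349 peaks of all genes, and 5 (8.77%) held none, against 24.9%. This rests largely on Zc3h13 and Virma, with 18 and 11 of the 57 peaks, most of them in internal coding exons. No peak of Wtap held only CDS bases. A stop codon was crossed, with CDS and 3′-UTR bases on its sides, by 14 (24.6%), against 35.6%. All-CDS peaks were 10 of 13 and 11 of 15 in the WT lists and 7 of 16 and 6 of 13 in the KO lists. No share per list over all genes stands beside these counts, so they are not read as a difference particular to these genes. A score of 3100 or more, at which many peaks stand, was given to 18 (31.6%), against 15.1% of all peaks, and most of the 18 were on Zc3h13. Peaks of 1 gene in different lists, and neighbouring peaks of 1 gene, are not independent, so these shares are a description.

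GGAC was searched on the transcript strand, with overlaps counted. It occurred in 20 of the 21 regions, or 95.2% (exact Clopper-Pearson 95% interval 76.2% to 99.9%, counting error only), and in 85.9% of all regions. In the central 200 bp of each region the share was 71.4%, against 59.9%. Per kb the regions of the writers and erasers held 6.18 GGAC and those of all genes 4.47. The longer form GGACT, which the printed stretches mark where present, occurred in 11 of the 21 regions (52.4%) and in 52.9% of all regions, at 1.16 and 1.31 per kb. DRACH, which contains every GGAC not followed by G, occurred in 100% and 99.9% of regions and was thus in nearly every stretch of this width. The densest regions after the exon 15 of Zc3h13 were exon 9 of the same gene, Rbm15b with 9.48 and Rbm15 with 8.45 GGAC per kb, and the least dense, apart from the Cbll1 region without any, was Zc3h13 exon 14 with 1.68.

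Of 32 other genes of the m6A pathway, 17 had a peak in at least 1 list and 4 in all 4, against 32.1% and 9.78% of all protein-coding genes. These 4 were all among the 14 readers, the proteins that bind m6A or methylated transcripts. The cytoplasmic reader Ythdf2 had 1965 and 1711 bp of peaks in WT and 1971 and 1979 bp in KO, and the nuclear reader Ythdc1 had 1242 and 1158 bp in WT and 1242 and 1000 bp in KO. Ythdf3 had 2312 and 1488 bp in WT and 2444 and 2838 bp in KO, and Prrc2a had 2002 and 2112 bp in WT and 2033 and 2317 bp in KO. Ythdf2 and Ythdf3 had more bases in both KO lists than in both WT lists and Ythdc1 and Prrc2a did not, beside 29.6% of all genes with a peak in all 4 lists. Hnrnpc, which binds sites opened by m6A, had 784 and 318 bp in the WT lists and no KO peak, and Igf2bp2, which stabilises methylated mRNAs, had 372 and 322 bp in the KO lists and no WT peak. That is 1 of the 17 genes for each pattern, near the 3.84% and 4.88% of all genes with a peak. Of 6 other RNA methyltransferases and partners 3 had a peak, of 5 genes of S-adenosylmethionine supply and recycling 2, and of 7 other AlkB homologs 2, none of them in all 4 lists.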

How the data were processed

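Total RNA from the BMDMs of each mouse (2 WT, 2 KO) went through an m6A IP and directional library preparation, and per the submitters' processing notes reads were handled with cutadapt 1.9.3 and HISAT2 2.0.4 and mapped to mm10 (GRCm38). The authors deposited 1 peak list per replicate, not pooled over replicates, with a score for each peak. The peak names begin with MACS, while the version, settings, filters and meaning of the score are not given in the sources used here, so scores were ranked only within a list. Scores were at least 50.05 and peaks at least 300 bp wide.

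File starts were counted from 0, since 28.2% of the 25484 peak starts then fell on an exon start, against 0.33% otherwise, and coordinates are printed counted from 1. Each peak was assigned to the protein-coding gene of GENCODE M21 with the largest same-strand exon overlap, at least 1 bp, which placed 97% to 97.3% of peaks. Peaks of the 4 lists sharing at least 1 bp were merged into regions, of which those on protein-coding genes are counted here. Exons are numbered along the transcript with the longest CDS, or the coding transcript that covers most of a peak. A genotype pattern means a peak in both lists of a genotype and neither of the other. SDs are over replicates, taken as mice.

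The 10 genes are all named. Of 32 other pathway genes, those with a peak in all 4 lists or with a genotype pattern are named. The genes and lists were chosen with earlier results of these data known. No test over the genes was run. Assignment and merging were tested on simulated data with planted peaks. Alternatives were to keep only the top 50% of a list by score, to cut the lists to the same length by score, to require at least 50% of a peak in exons, to ignore strand, to merge within 100 bp, to search DRACH or the central 200 bp, and to leave out each list. The count of peak bases and its alternatives were chosen after seeing the data. Python 3.11.15, scipy 1.17.1, pysam 0.24.0, samtools 1.23.1 and matplotlib 3.10.9 were used.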

Additional observations from a re-analysis of the deposited data

How the results depend on the processing

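Of 73 values recomputed under an alternative, 65 were called the same and 8 moved. Among the 65 is the mean difference with the mice taken as pairs (below), which pairing cannot change. Counts were called the same within 1.5 times the reported count, and the mean difference within the spread between mice. With the 50% of peaks of highest score, the mean number of peaks on the 10 genes, KO minus WT, was -1.5 in place of 0.5, and 2 genes (Wtap and Virma) in place of 1 had more peak bases in both WT lists. That mean difference ran from -1 to 2 when 1 list was left out: -0.5 without WT-1, 1.5 without WT-2, -1 without KO-1 and 2 without KO-2. Leaving out 1 list gave 0 to 1 genes with a peak in WT only, namely Cbll1 without KO-1. The share of all genes with that pattern is not given for these settings. Genes with more bases in WT were then 1 to 2: Virma joined Wtap without WT-1 or without KO-1, and Cbll1 joined it without KO-2. Genes with more bases in KO stayed at 4. Over all genes with a peak in every list kept, 16.1% to 24.1% then had more bases in WT, in place of 9.36%. Those with more in KO were 37.1% to 50.7%, in place of 29.6%. The share of regions with the motif was 71.4% for GGAC in the central 200 bp and 100% for DRACH, in place of 95.2%. Both are among the 8 that moved, although they lie within 1.5 times the reported share. The genes with more bases in both KO lists were 3 in place of 4 with the 50% of highest score, where Rbm15b had no peak left in WT-2 and 5 genes kept a peak in all 4 lists. The labels do not say that mice with the same number belong together. Taking them as pairs (a replicate block, chosen after seeing the data), the difference in peak number was 3 in pair 1 and -2 in pair 2, with the same mean of 0.5, and that in Virma peak bases was 401 and -1297 bp. The cause of these changes was not tested. With 1 list per mouse, no counts and names that number many more peaks than are listed, the absence of a peak has no detection limit that could be given.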
